A study of Bos taurus with 27 samples.

Results

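The 150 genes described here were those whose transcript level varied least between newborn calves in the ileum, the stretch of small intestine that opens into the large intestine. They came from RNA sequencing of 27 male Holstein calves at 51 h of age, all of which had received colostrum, the antibody-rich first milk: 9 immediately after birth (0 h), 9 at 6 h and 9 at 12 h. No group was left unfed, each library came from a separate calf, and whole tissue was sequenced, so a level is an average over all cell types of the piece taken. Of the 24616 genes in the count table, 11429 passed the filter on low counts and 2551 of these had a mean of at least 6 on the log2 CPM scale (CPM is a gene's count scaled to a fixed library total). Leaving out 201 genes that followed the first principal component, which held 15.9% of the variance between libraries, by an absolute correlation above 0.7, and 10 rows that the rule sets aside (those with the highest mean CPM and 3 named rows), left 2340 eligible genes. The members were the 150 of these with the smallest standard deviation of log2 CPM over the 27 calves, 6.41% of the eligible genes. They were thus chosen by the mean, the spread and the correlation with the first component in these same calves, and their small spread is a description, not a finding.

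Genes of nearly constant level are used in gut research as reference genes, the yardstick against which other transcripts are measured in quantitative PCR. Textbook reference genes encode machinery that most cells need, such as the cytoskeleton, glycolysis, ribosomes and the handling of RNA. The ileum of a newborn calf is a tissue in transition, whose epithelium takes up colostral antibodies, then closes to them and is renewed. The files list genes by Ensembl identifier alone and 0 identifiers matched a gene symbol. Which of the 150 are classical reference genes is therefore not known here, the tissue's defining markers could not be checked, and members are named by identifier with no position or sequence.

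Library totals ran from 972578 to 7125552 counts, with a median of 1626626 at 0 h, 1346552 at 6 h and 3326867 at 12 h. Together the 150 genes held 3.61% ± 0.160 of all counts in the 0 h group, 3.59% ± 0.114 in the 6 h group and 3.54% ± 0.258 in the 12 h group (mean ± SD, n = 9 each). The deepest library, replicate 7 at 12 h, stood apart: its 10 most abundant genes took 42.5% of its counts, where the other 26 libraries gave them 30.0% to 36.6%. The members took their lowest share there, 2.99%. Without that calf, 133 of the 150 genes were chosen again and their median SD went from 0.116 to 0.114.

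Members spanned a wide range of read numbers. Their mean ran from 63.7 to 1209 normalised CPM with a median of 175, where the other 2190 eligible genes had a median of 106. CPM are not divided by transcript length, so they order genes by reads and not by transcripts. The SD of log2 CPM ran from 0.0708 to 0.127 with a median of 0.116, which corresponds to a median coefficient of variation of 8.0%. The other eligible genes had medians of 0.199 and 13.8%. Between the lowest and the highest of 27 calves, members differed by 1.18-fold to 1.58-fold, and 145 of 150 by less than 1.5-fold. Of the other eligible genes, 236 of 2190 stayed under 1.5-fold. The limit set by the rule fell in a dense part of the range: the last gene inside, ENSBTAG00000012585, had an SD of 0.126556 and the first outside, ENSBTAG00000018742, one of 0.126557.

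**Figure D1:**
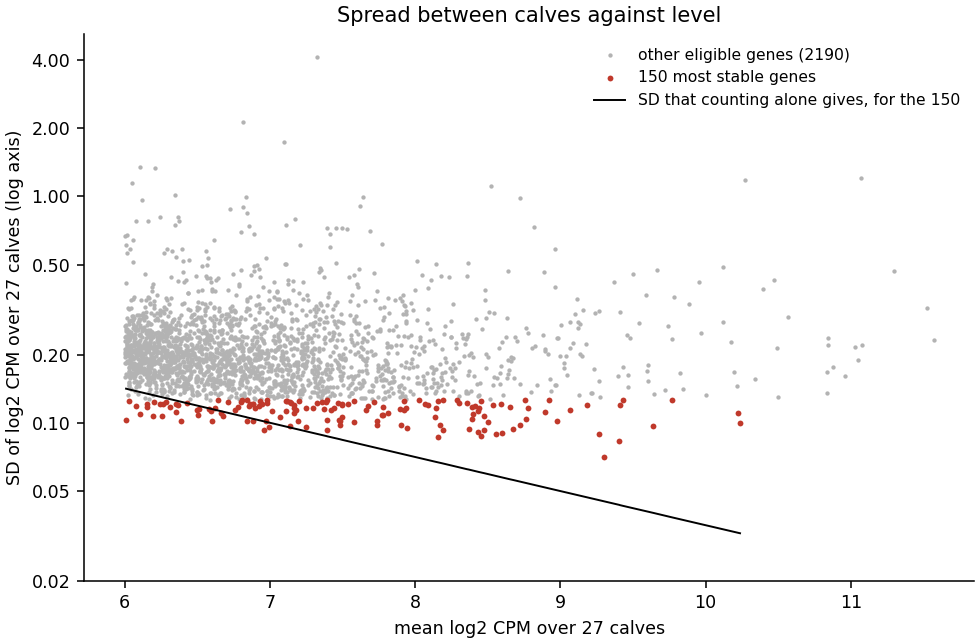
SD of log2 CPM over 27 calves (vertical, log axis) against mean log2 CPM (horizontal) for the 150 most stable genes (red) and the other 2190 eligible genes (grey); the line is the SD that counting reads alone gives at the members' levels. Red points lie under 0.127 at every level, on or under the line at the left (29 genes) and above it at the right.

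The steadiest gene was ENSBTAG00000008482. It stood at 591 to 680 normalised CPM in the calves fed at 0 h (median 639), 589 to 673 at 6 h (median 634) and 577 to 678 at 12 h (median 611). The 3 feeding groups covered nearly the same range, and the highest calf exceeded the lowest by 1.18-fold. Next in rank, ENSBTAG00000016708 ran from 601 to 734 over all calves, 1.22-fold. ENSBTAG00000046358, the member with the most reads, ran from 1112 to 1400 at 0 h (median 1229), 1109 to 1271 at 6 h (median 1168) and 1069 to 1399 at 12 h (median 1213). Its highest values, 1400 and 1399, came from different feeding groups. At the other end, ENSBTAG00000011070, with the fewest reads, ran from 55.7 to 70.2 at 0 h (median 60.1), 60.4 to 72.1 at 6 h (median 62.6) and 58.0 to 74.8 at 12 h (median 62.6). The groups overlapped in each of these genes.

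**Figure D2:**
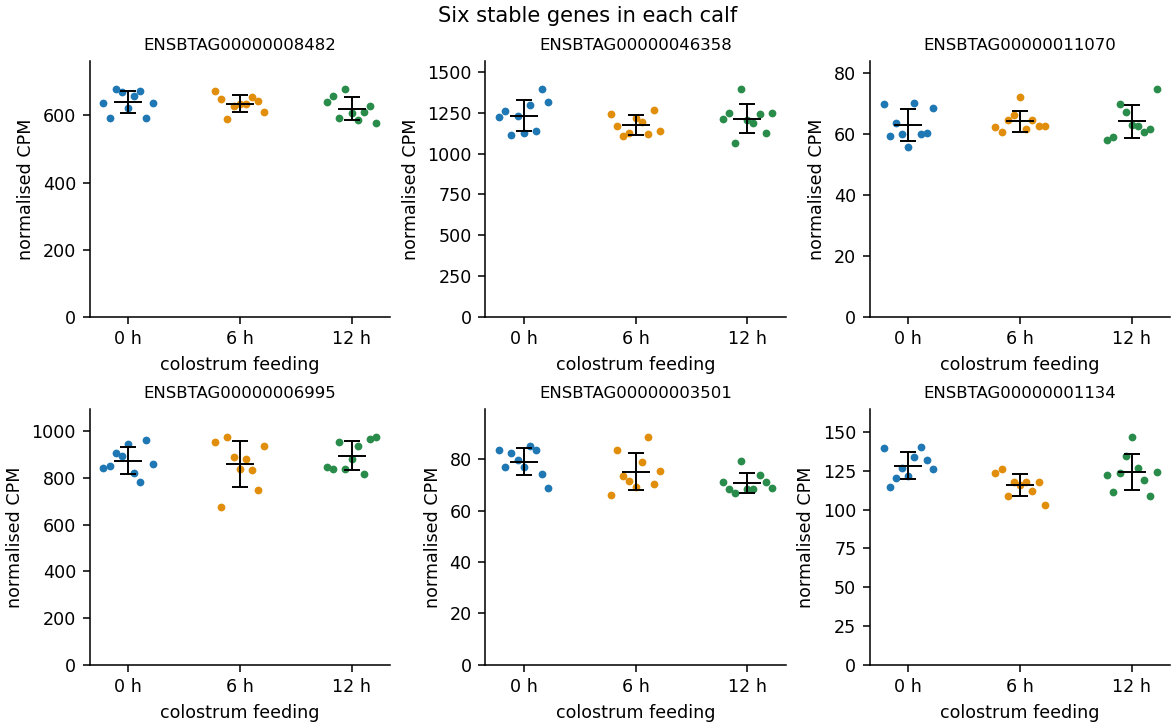
Normalised CPM of 6 stable genes by colostrum feeding time (horizontal); points are calves, and bars are the mean and SD of 9. All axes start at 0, and the feeding groups overlap in every panel, also for ENSBTAG00000003501 and ENSBTAG00000001134, which had the smallest unadjusted p.

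How much of this spread is more than the noise of counting reads depended on the level. Counting alone, at each member's mean and the 27 library totals, gives a median SD of 0.0852, and it made up a median of 58.1% of the members' variance against 28.2% for the other eligible genes. For 29 members the measured SD was at or below that of counting, as it was for 4 of the other 2190. All 29 belonged to the 49 members with a mean log2 CPM of 6 to 7. In this class the median SD of members was 0.117 and that of counting 0.114. The choice of the smallest SD in these same calves lowers the SD of its members, so these values describe the choice and set no limit on the spread between calves. ENSBTAG00000011070 is such a gene, with an SD of 0.103 where counting gives 0.141. The 51 members at 7 to 8 had a median of 0.115 against 0.0856, and the 50 members at 8 or more one of 0.112 against 0.0596. After taking off the counting variance, these classes had a median SD of 0.0767 and 0.0966. Members were 3.45% of the eligible genes at 6 to 7, 7.99% at 7 to 8 and 17.9% at 8 or more.

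ENSBTAG00000006995 carried the largest spread beyond counting among the members, 0.120 of a measured 0.126. It stood at 785 to 962 normalised CPM at 0 h (median 859), 674 to 974 at 6 h (median 881) and 819 to 977 at 12 h (median 882). The low end belonged to replicate 2 at 6 h, at 674. That calf was also the one in which the largest number of members, 21 of 150, lay farthest from their own mean, where the median calf had 4. Replicates 7 and 9 at 12 h followed with 14 each. Replicate 2 at 6 h held 1067644 counts and these 2 libraries 7125552 and 1172672, and the part of depth in this was not tested. The other eligible genes also lay far from their own means in replicate 2 at 6 h. Their median absolute deviation of log2 CPM was 0.184 there, and over the calves it ran from 0.107 to 0.205. Without replicate 2 at 6 h, 134 of the 150 genes were chosen again.

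Pairs of members were mostly weakly correlated. Over the 11175 pairs of members the median Pearson correlation across 27 calves was 0.0919, against 0.0236 for pairs of other eligible genes, and 539 pairs exceeded 0.5 while 72 lay below -0.5. Pairs beyond 0.5 in size were not counted for the other eligible genes. The upper quartile was 0.268 for pairs of members and 0.242 for pairs of other eligible genes. The range was -0.724 to 0.812 for members and -0.915 to 0.997 for the others. All pairs share libraries and scaling, and counting noise lowers such correlations. The closest pair was ENSBTAG00000020757 and ENSBTAG00000001055, with a correlation of 0.812 over 27 calves. Both had their lowest value in replicate 5 at 0 h, at 284 and 213 normalised CPM, and their highest in replicate 8 at 6 h, at 411 and 314. The first principal component of the members held 17.7% of their variance, and 18.5% for the other eligible genes. Their correlation with the log2 library total had a median of -0.0378 and exceeded 0.5 in size for 0 of 150 genes, and for 10 of the other 2190. With the second principal component, which the rule did not use, members had correlations from -0.654 to 0.687 (median -0.0916), and the other eligible genes from -0.829 to 0.928 (median -0.0589).

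A measure that the choice did not use came from choosing genes in 2 feeding groups and reading their spread in the third. By the same rule, 150 genes were chosen in the 18 calves of 2 groups, and 96 to 107 of them belonged to the 150 chosen in all calves. Read in the 9 calves fed at 0 h, genes chosen without them had a median SD of 0.128, where the other eligible genes had 0.191, and 142 of 150 lay below that median. In the calves fed at 6 h the medians were 0.134 and 0.206, with 137 of 150 below. In the calves fed at 12 h they were 0.126 and 0.186, with 138 of 150 below. The SD in the unused calves was larger than in the calves used to choose, where its median was 0.112, 0.106 and 0.109. Counting alone gives the 150 members a median SD of 0.0845, 0.0954 and 0.0744 within the 0 h, 6 h and 12 h groups. The part of depth in the SD of the unused calves was not tested. The gap between chosen and other genes was present at each level. At a mean log2 CPM of 6 to 7, 86.7% to 88.5% of those chosen lay under the median of the others at that level. At 8 or more this was 97.9% to 100%. The steadiest 150 in the unused 9 calves shared 33 to 41 genes with those chosen in the other 18. In all, 55 genes were chosen in each of the 3 sets of 18 calves, and all 55 were members. Each calf belonged to 2 of these sets, and the members were chosen in all calves together. The sets thus share calves with each other and with the full choice, which by itself favours overlap. The 55 and the 96 to 107 shared genes are therefore a description and not a test.

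**Figure D3:**
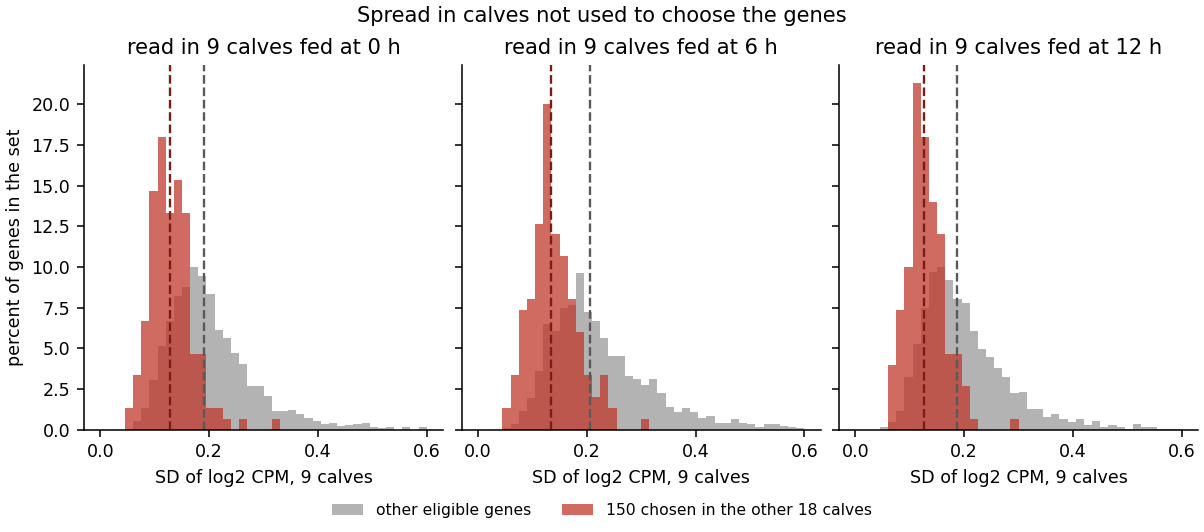
Percent of genes (vertical) by SD of log2 CPM in 9 calves (horizontal), for 150 genes chosen in the other 18 calves (red) and the other eligible genes (grey); dashed lines are medians, and 46 to 51 grey genes lie beyond the axis. In each panel the red median, 0.126 to 0.134, lies left of the grey median, 0.186 to 0.206.

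The time of colostrum feeding was compared to ask whether a delayed first meal changed the ileum transcripts. Since the spread over all 27 calves holds any difference between feeding groups, the rule limited how far members could differ, and their small fold changes are a description. At an adjusted p under 0.05, edgeR's quasi-likelihood test called 0 of 150 members in each of 4 comparisons, which were the 6 h and then the 12 h group against the 0 h group, the 12 h against the 6 h group, and any difference among the 3 times. It called 0% of the 11429 genes tested in each of them. At an unadjusted p under 0.05 it listed 2, 1, 0 and 0 members, where it listed 3.33%, 3.5%, 5.12% and 3.81% of all genes. DESeq2 also called 0 members, and 0%, 0.0131%, 0% and 0.00872% of 22939 genes. At an unadjusted p under 0.05 it listed 3, 3, 2 and 0 members and 2.34%, 2.28%, 3.37% and 2.65% of genes. Those 22939 genes include ones that the filter on low counts removed. Of the other 2190 eligible genes, DESeq2 listed 3.33%, 5.21%, 6.12% and 5.53%. limma voom called 0 members and 0% of 11429 genes in each comparison, and at an unadjusted p under 0.05 listed 3, 2, 3 and 0 members and 4.63%, 4.06%, 6.37% and 5.03% of genes.

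edgeR shares information on spread between genes, which raised that of the members: their median quasi-likelihood spread was 0.183 from their own counts and 0.297 after this step, against 0.557 and 0.563 for the other eligible genes. An exact permutation test of log2 CPM, two-sided over all splits of 9 against 9, uses each gene's own values only. It was added after seeing the data. It listed 7 of 150 members (4.67%) at an unadjusted p under 0.05 in each of the 3 pairwise comparisons, where it listed 3.47%, 4.64% and 5.21% of all genes. These shares are near the background. Its smallest possible p is 4.11e-05, and after adjustment over all genes the smallest exact permutation p of a member was 0.912, in 12 h against 0 h. The share of a member's variance that lay between feeding groups had a median of 5.75%. It was 5.61% for the other eligible genes and 5.30% for all genes kept. This share is taken of the variance over all calves, by which the members were chosen. A small variance over all calves also limits the part between groups, so these shares are a description and not a test.

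In the pairwise comparisons, taken in the same order, log2 fold changes of members ran from -0.15 to 0.14, from -0.15 to 0.088 and from -0.14 to 0.11. Their median size was 0.035, 0.039 and 0.037, with a median standard error of 0.068, 0.067 and 0.068. Over all genes tested the median size was 0.092, 0.087 and 0.10. The 95% confidence interval of the fold lay within 1.2-fold in either direction for 145, 148 and 149 of the 150 members, and for 17.3%, 18.6% and 16.7% of all genes. Within the tighter bound of 1.1-fold it lay for 10, 10 and 13 members, and for 0.105%, 0.0962% and 0.122% of all genes. Of the other 2190 eligible genes, which have levels in the same range, 52.3%, 50.0% and 48.1% had an interval within 1.2-fold. The spread that chose the members also sets the width of their intervals, so nothing is read from these counts. No member separated 2 feeding groups without overlap, which 0%, 0.0175% and 0.00875% of all genes did.

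**Figure D4:**
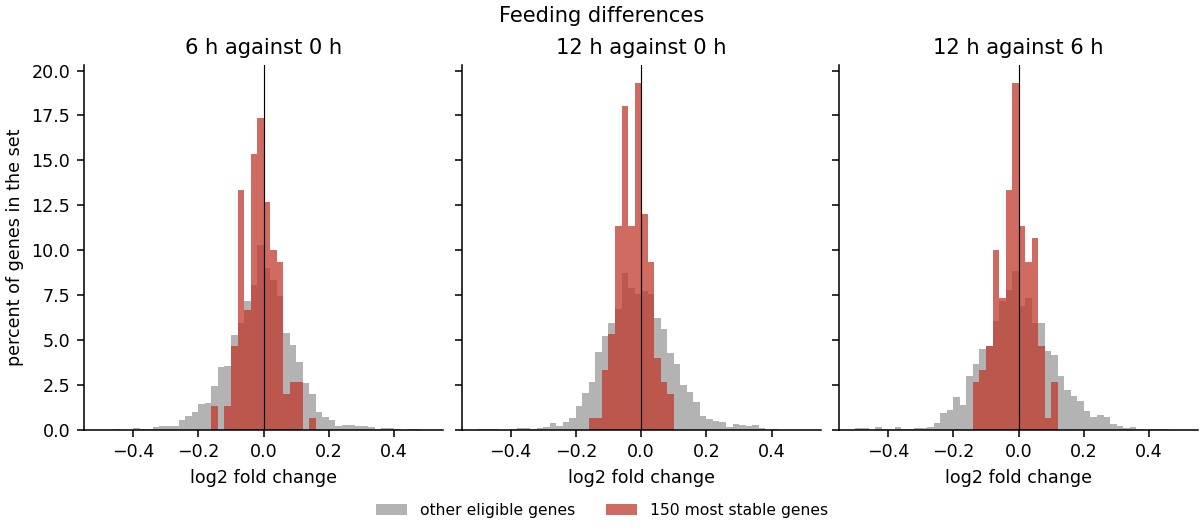
Percent of genes (vertical) by log2 fold change (horizontal) in each feeding comparison, for the 150 most stable genes (red) and the other eligible genes (grey); 8 to 13 grey genes lie beyond the axis. All red values lie between -0.15 and 0.14, a range that the choice of genes by small spread limits.

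The members with the smallest unadjusted p had lower values in the later-fed calves. ENSBTAG00000003501 stood at 68.7 to 85.1 normalised CPM at 0 h (median 79.7), 66.1 to 88.8 at 6 h (median 73.3) and 66.7 to 79.3 at 12 h (median 68.7). All 9 calves fed at 12 h lay below the median of the 0 h calves, and the ranges overlapped. For 12 h against 0 h its log2 fold change was -0.15 (SE 0.069, edgeR unadjusted p = 0.0315, adjusted p = 1; exact permutation p = 0.00247, adjusted p = 0.912). ENSBTAG00000001134 stood at 114 to 140 at 0 h (median 127), 103 to 126 at 6 h (median 118) and 109 to 147 at 12 h (median 124). All 9 calves fed at 6 h lay below the 0 h median, while the 12 h calves covered the 0 h range. For 6 h against 0 h its log2 fold change was -0.15 (SE 0.068, edgeR unadjusted p = 0.0341, adjusted p = 1; exact permutation p = 0.00535, adjusted p = 1).

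Toward higher values, the smallest edgeR p belonged to ENSBTAG00000017283 and ENSBTAG00000027722. The first stood at 55.7 to 71.9 normalised CPM at 0 h (median 60.2), 61.2 to 72.5 at 6 h (median 68.0) and 58.3 to 76.4 at 12 h (median 62.6). Its 9 calves fed at 6 h lay above the 0 h median, with a log2 fold change of 0.14 (SE 0.076, edgeR unadjusted p = 0.0696, adjusted p = 1). The exact permutation test gave p = 0.0145 (adjusted p = 0.9998) for this difference. The second stood at 187 to 227 at 0 h (median 207), 206 to 240 at 6 h (median 223) and 198 to 246 at 12 h (median 204). In 6 h against 0 h its log2 fold change was 0.11 (SE 0.060, edgeR unadjusted p = 0.0892, adjusted p = 1), with 7 of 9 calves above the 0 h median. Here the exact permutation test gave p = 0.0170 (adjusted p = 0.9998). None of these 4 differences passed the adjustment.

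More members had a lower than a higher mean in the later-fed group of each pair. A log2 fold change above 0 was seen for 60, 45 and 59 of 150 members in the 3 pairwise comparisons, where 49.8%, 50.3% and 50.1% of all genes and 47.4%, 45.1% and 47.7% of the other eligible genes were above 0. A share under 50% was thus also seen in the other eligible genes. The first and second comparison share the 0 h calves and the values are close to 0, with a median log2 fold change of -0.012, -0.021 and -0.0068. These counts followed the processing: over 8 other fits they ran from 47 to 66, from 40 to 51 and from 46 to 82, the last with no filter on low counts, where the third comparison was above 0 for most members. When single calves were left out they ran from 54 to 74, from 38 to 57 and from 48 to 75, the last without replicate 8 at 6 h.

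Which genes counted as the steadiest depended on how steadiness was measured. Of the 150 members, 141 were chosen again with RLE size factors in place of TMM. By the coefficient of variation 146 were, and by the SD within feeding groups 132. The SD of their ratio to every other eligible gene chose 119 again. Scaling largely cancels in this ratio, but the eligible genes were still those of the TMM-scaled values. Fewer were shared when libraries were scaled by their totals alone (94), when the median absolute deviation took the place of the SD (77), when counts were thinned to 972578 per library (76), when the counting variance was taken off (80) and when edgeR's tagwise dispersion was ranked (72). The last measures moved the choice along the range of levels. With the counting variance taken off, 118 of the 150 genes chosen had a mean log2 CPM under 7 and 11 one of 8 or more, where the members had 49 and 50. Of the 70 members lost that way 1 lay under 7. With thinned counts the shift went the other way, to 17 genes under 7 and 83 at 8 or more. Leaving out each calf in turn, 128 to 142 members were chosen again, and 108 were chosen in every one of these 27 repeats.

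**Figure D5:**
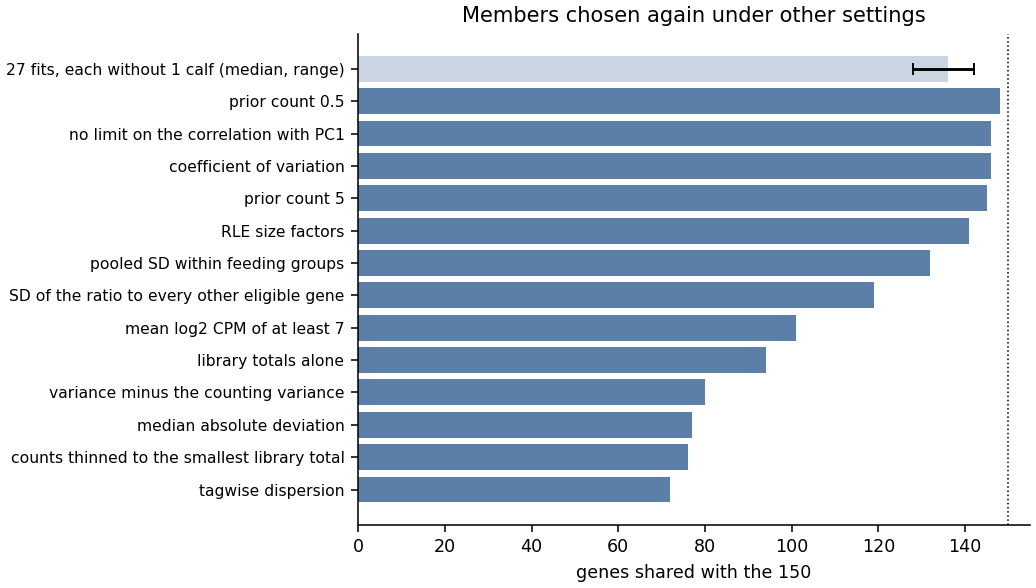
Number of the 150 members chosen again (horizontal) under each other setting (bars), and, in the top bar, the median and range over 27 repeats that each left out 1 calf; the dotted line marks 150. Bars run from 72 genes for edgeR's tagwise dispersion to 148 for a prior count of 0.5.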

How the data were processed

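The authors deposited unnormalised read counts for each gene of 27 libraries in a single table. The submitters' processing notes name TopHat2 2.1.1, SAMtools 1.4, HTSeq and the build UMD3.1, with no role or order. Which strand setting and annotation release were used is not given in the sources used here. The TruSeq version 2 kit named in the labels' protocols does not mark strand, so antisense partners cannot be told apart. Members and gene lists were chosen with earlier results of these data known. The 21 lists could not be tested, since 0 identifiers matched the RefSeq gene table. Named genes were, by rule, the member of smallest SD, those of highest and lowest mean, the genes at the limit and the 2 higher and 2 lower with the smallest p. ENSBTAG00000016708, ENSBTAG00000006995, ENSBTAG00000020757 and ENSBTAG00000001055 were chosen after their values were seen.

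In R 4.3.3 with edgeR 4.0.16, filterByExpr kept genes (minimum count 10, minimum total 15, groups of 9), totals were scaled by TMM, and log2 CPM carried a prior count of 2. A robust quasi-likelihood model over all 27 libraries was tested with Benjamini-Hochberg adjustment over 11429 genes at 0.05. edgeR holds p at that of counting noise or above. This applied to 3, 2 and 6 members in the pairwise comparisons, whose intervals were widened to match. The counting SD came from the mean CPM and each scaled library total. DESeq2 1.42.0 and limma 3.58.1 were alternatives. The 351 library pairs held no duplicate (smallest chi-square per gene 2.04). Gene tests and the choice of genes were tested on simulated data. Figures were drawn in Python 3.11.15.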

Additional observations from a re-analysis of the deposited data

Results flagged for a closer look

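In each feeding group, 13 of the genes named and 4 library measures (the total, the members' share of counts, the share of the 10 most abundant genes, and the number of members farthest from their mean in that calf) were searched for a calf whose distance to the closest other value was large beside the range of the 9. Of 51 sets of 9 values 5 met this. Most sets were of genes chosen by their values in these same calves, so this number is not set against chance. The 150 genes took 3.97% of the counts in replicate 7 at 0 h, with the next calf at 3.69%. The 10 most abundant genes had their lowest share, 30.0%, in the same library. At 12 h they took 42.5% in replicate 7, with the next calf at 36.3%. In replicate 5 at 0 h, 10 members lay farthest from their mean, with the next calf at 5. ENSBTAG00000011070 stood at 72.1 normalised CPM in replicate 5 at 6 h, with the next calf at 66.1. ENSBTAG00000020757 stood at 410.7 in replicate 8 at 6 h, with the next at 361. Over all 150 members, 21 of 450 such sets (4.67%) held a calf that far out. The members were chosen by small spread in these same calves, which bears on how often a calf lies far out. This share is therefore a description and is not set against chance.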

How the results depend on the processing

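In 8 other fits (7 for any difference among the 3 times) and 27 that each left out 1 calf, 0 members were called in each feeding comparison, also with the replicate number as a block (0 members, 0 genes). Among all genes, 12 h against 0 h called 1 with no filter on low counts, 3 in DESeq2 and 0 to 1 when a calf was left out (1 without replicate 9 at 0 h), and DESeq2 called 2 for any difference among the 3 times. The 4 named feeding differences kept their sign in each of these fits. The labels do not say whether the replicate numbers pair the calves. Same-numbered calves had a mean correlation of deviations of -0.0349 over 27 pairs, against 0.00428 for different numbers. Of 27 libraries, 2 were closest to their own number. These values show no pairing by number, and they cannot exclude one. With the block, 0 members were listed at an unadjusted p under 0.05 in 6 h against 0 h, where 2 were listed without it. This number was also 0 with library totals alone, and 7 in the exact permutation test. When single calves were left out it ran from 0 to 3.

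Members chosen again went from 150 to 94 with library totals alone (added after seeing the data), 76 with thinned counts, 77 by the median absolute deviation, 80 with the counting variance taken off and 72 by the tagwise dispersion, and to 128 to 142 without single calves. The cause was not tested. The members' median SD went from 0.116 to 0.131 with library totals alone and to 0.160 with thinned counts, which hold fewer reads, and to 0.114 to 0.117 without single calves. Of the 49 members under a mean log2 CPM of 7, 29 had a measured SD at or below that of counting, in the calves that chose them. The part of depth in this was not tested.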

Other observations

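A core of 11 members was chosen under the main rule and under each of the 12 alternatives that kept its limit on the mean and all calves. These 11 lay in the middle of the range, with a mean log2 CPM from 6.60 to 7.94 and an SD from 0.0946 to 0.113, and neither the steadiest gene, ENSBTAG00000008482, nor any other member with a mean of 8 or more was among them. The core gene with the smallest SD was ENSBTAG00000006744, with a mean log2 CPM of 7.94 and an SD of 0.0946, followed by ENSBTAG00000009939 at 7.25 and 0.0958. ENSBTAG00000027722, which had among the smallest unadjusted p toward higher values at 6 h, was also in this core, at 7.74 and 0.0974. The alternatives share calves and counts, so being chosen under each of them is a description and not a test.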
